A study of Mus musculus with 12 samples.

Results

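The genes of the mitochondrial ribosomal proteins were followed across the 12 arrays of a knockdown study in mouse embryonic stem cells (mESCs). They were chosen by name, as every gene whose symbol begins with Mrpl or Mrps followed by a number and that has a probe set assigned to 1 gene symbol. Where a gene had more than 1 such probe set, the one with the highest mean signal over the 12 arrays was kept. This gave 71 genes, 43 of the large subunit (Mrpl) and 28 of the small subunit (Mrps), of 22180 named genes on the array. Another 7 symbols (Mrpl30, Mrpl33, Mrpl41, Mrpl43, Mrpl44, Mrpl53 and Mrps6) lie only on probe sets shared between genes and were left out. All cells were male E14.wt mESCs of the 129P2/OlaHsd background, infected with lentiviral pLKO.1 puro vectors. RNA was taken 5 days after infection under puromycin selection. The cells were grown on CD1 feeder cells, and the methods describe 1 passage without feeders for feeder-free work. The methods do not state whether that passage came before infection of the array cultures. By the labels, experiment A holds 3 arrays of cells with a non-target shRNA (shcontrol_A) and 3 with an shRNA against Msl1 (shMsl1_A). Experiment B holds 3 arrays with the non-target shRNA (shcontrol_B) and 3 with an shRNA against Nsl1 (shNsl1_B). Each target was knocked down with 1 shRNA clone, so an effect of the target and an effect of that shRNA cannot be told apart.

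The mitochondrial ribosome translates the few mRNAs encoded by mitochondrial DNA, which give core subunits of the respiratory chain complexes and of ATP synthase. All of its proteins are encoded in the nucleus and imported, and they fall into homologues of bacterial ribosomal proteins and proteins found only in mitochondrial ribosomes. The symbols follow the subunit in which a protein was first placed, although Mrps30 and Mrps18a sit in the large subunit of the assembled particle and Mrps36 is now known as a component of the 2-oxoglutarate dehydrogenase complex. Msl1 is a subunit of the MSL complex and Nsl1, encoded by Kansl1, a subunit of the NSL complex, and both complexes carry the histone acetyltransferase Mof.

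The promoters of 4 genes that head the comparisons are shown to make clear how unlike their start regions are. Mrps15, Mrpl55 and Mrpl35 are the members with the smallest p in the Nsl1 knockdown when replicates are paired, and Mrpl32 is the member with the smallest p in the Msl1 knockdown as labelled. The sequences are from RefSeq, build GRCm38.p6, and run 5′ to 3′ on the gene's strand from 250 bases before the start to 50 bases after it, at chr4:126046678-126046977 (Mrps15, + strand), chr11:59202236-59202535 (Mrpl55, + strand), chr6:71823735-71824034 (Mrpl35, - strand) and chr13:14612988-14613287 (Mrpl32, - strand). Capitals mark exact matches, on either strand, to 4 motifs: GCGCNTGCG of nuclear respiratory factor NRF1, CCGGAAG of ETS factors such as GABPA, AAGATGGC of YY1 and GGGCGG of SP factors. None of the 4 motifs contains another, but the first can match both strands of one site in overlap.
Mrps15: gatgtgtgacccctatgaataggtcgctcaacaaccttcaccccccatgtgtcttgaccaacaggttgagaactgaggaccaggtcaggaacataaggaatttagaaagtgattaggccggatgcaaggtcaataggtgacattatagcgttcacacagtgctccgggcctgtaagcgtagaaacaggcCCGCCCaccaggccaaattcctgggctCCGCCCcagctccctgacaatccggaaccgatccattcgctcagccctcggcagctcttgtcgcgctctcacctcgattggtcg
Mrpl55: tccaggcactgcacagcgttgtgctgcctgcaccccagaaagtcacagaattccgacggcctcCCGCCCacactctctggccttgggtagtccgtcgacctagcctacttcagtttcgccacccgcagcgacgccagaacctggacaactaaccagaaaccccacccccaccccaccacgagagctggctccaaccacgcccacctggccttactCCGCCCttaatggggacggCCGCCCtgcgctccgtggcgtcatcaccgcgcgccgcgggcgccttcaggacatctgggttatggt
Mrpl35: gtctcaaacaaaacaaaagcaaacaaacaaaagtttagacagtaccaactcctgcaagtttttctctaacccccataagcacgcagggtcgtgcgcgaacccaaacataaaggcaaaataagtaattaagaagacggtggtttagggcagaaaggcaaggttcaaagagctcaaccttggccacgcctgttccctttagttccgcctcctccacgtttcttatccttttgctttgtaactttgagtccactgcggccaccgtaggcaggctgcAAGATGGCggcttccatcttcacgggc
Mrpl32: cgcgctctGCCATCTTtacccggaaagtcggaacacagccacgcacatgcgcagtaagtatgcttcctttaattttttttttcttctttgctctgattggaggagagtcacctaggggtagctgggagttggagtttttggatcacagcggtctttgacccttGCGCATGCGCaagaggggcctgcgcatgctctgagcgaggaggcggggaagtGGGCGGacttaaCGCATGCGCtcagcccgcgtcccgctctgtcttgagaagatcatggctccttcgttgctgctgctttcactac

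Mrps15 held 2 SP matches and Mrpl55 held 3, whereas Mrpl35 held a single YY1 match just after the start and Mrpl32 held matches to NRF1 at 2 places, YY1 and SP. RefSeq promoters were matched by symbol for 62 of the 71 members, with 68 promoters in all because some genes have more than 1 start. The NRF1 motif was present in 15 of these 68 promoters (22.1%) and in 6.31% of all 32851 promoters of the same length. The ETS motif was present in 33.8% of the members' promoters and 8.86% of all, the YY1 motif in 17.6% and 2.75%, and the SP motif in 54.4% and 35.7%. Between subunits, the ETS motif was in 28.6% of 42 large subunit and 42.3% of 26 small subunit promoters, the NRF1 motif in 23.8% and 19.2%, the YY1 motif in 14.3% and 23.1%, and the SP motif in 47.6% and 65.4%. Split by the Nsl1 knockdown described next, the ETS motif was in 28.9% of the 45 promoters of members lower in all 3 replicate pairs and in 43.5% of the other 23, the SP motif in 48.9% and 65.2%, the NRF1 motif in 20% and 26.1%, and the YY1 motif in 17.8% and 17.4%. These matches describe letters in a window and carry no measurement of a bound factor.

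The signals are log2 RMA values, in which a difference of 1 is a doubling, and arrays of a group correlated at 0.965 to 0.995 over all 41345 probe sets. Median array signals lay between 5.58 and 5.78. The targeted genes were read first. Kansl1 has 2 probe sets, and on the dimmer one its signals were 7.33, 7.30 and 7.36 in shcontrol_B and 6.45, 6.56 and 6.71 in shNsl1_B, with no overlap (difference -0.76 ± 0.10, SE, limma adjusted p = 0.297, or 0.104 with the replicate pairs as a block). On the brighter probe set the signals were 9.14, 9.36 and 9.52 against 8.47, 8.92 and 9.30. There the groups overlapped (difference -0.45 ± 0.23), although the knockdown array was the lower in each pair.

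In experiment A the targeted gene went against the labels. The Msl1 signals were 8.56, 6.90 and 8.62 in the 3 arrays labelled shcontrol_A and 6.77, 9.18 and 7.64 in those labelled shMsl1_A, so that a low array sat among the controls and the highest array among the knockdowns. The 6 arrays of experiment B read between 8.64 and 9.17 for this gene. The column headings of the supplementary table of changed genes that accompanies the study place the array labelled shcontrol_A 2 with the knockdowns and the array labelled shMsl1_A 2 with the controls, with all 255 probe sets of that table identical to the values of those arrays. Below, experiment A is described as labelled, without those 2 arrays, and with the groups of the headings, an alternative chosen after seeing the data.

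Across the 12 arrays most members moved together. Relative to each gene's own 12-array mean, the median over the 71 members was 0.37, 0.27 and 0.31 in the arrays labelled shcontrol_A 1 to 3, and 0.34, -0.10 and -0.07 in those labelled shMsl1_A 1 to 3. It was 0.14, -0.10 and -0.29 in shcontrol_B 1 to 3, and 0.02, -0.32 and -0.62 in shNsl1_B 1 to 3. The lowest array was shNsl1_B 3, in which 68 of 71 members were under their 12-array mean. The highest was shcontrol_A 1, and within experiment B the control array 3 lay below the knockdown array 1. The members with the largest spread over the arrays were Mrpl11, a protein of the stalk base where translation factors bind (SD 0.61), Mrpl35, a homologue of bacterial L35 (0.60), and Mrpl32, a homologue of bacterial L32 (0.57). The steadiest was Mrps18b, one of 3 paralogues related to bacterial S18 (SD 0.12). The mean SD within a group was 0.33 for members against 0.24 for all probe sets in shNsl1_B. It was 0.27 against 0.25 in shMsl1_A as labelled, 0.24 against 0.22 in shcontrol_B and 0.16 against 0.16 in shcontrol_A.

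**Figure D1:**
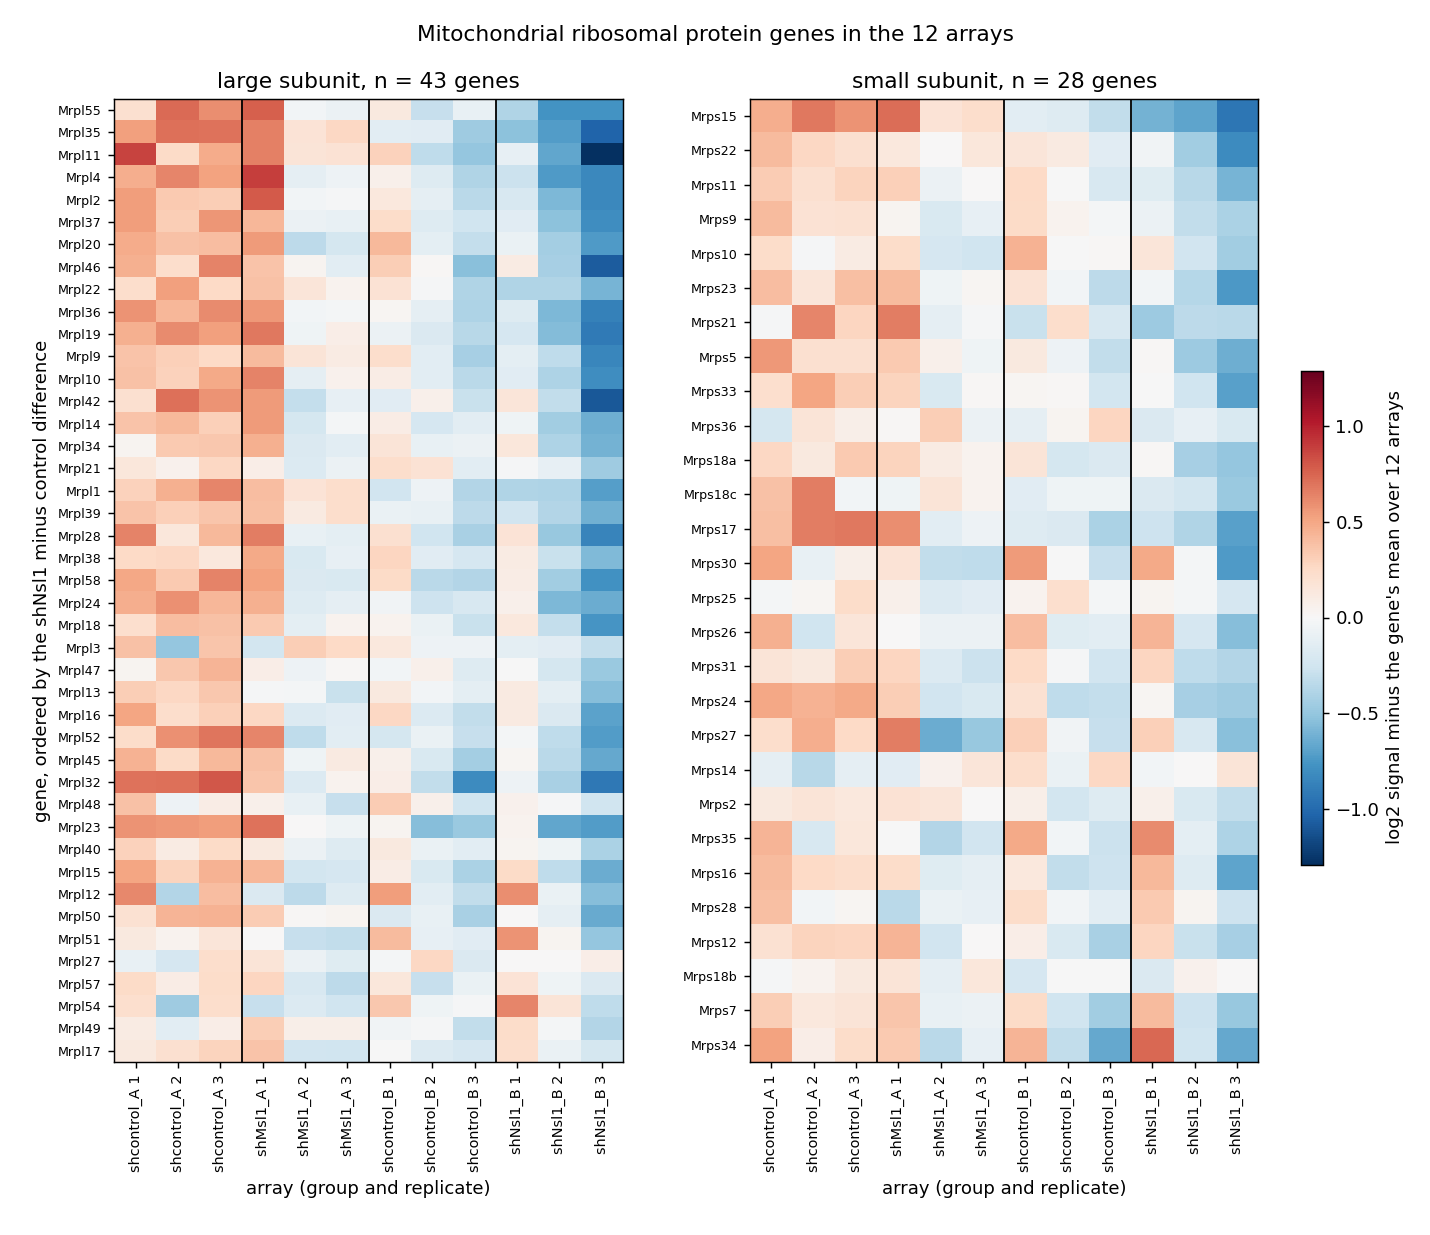
Each row is a member and each column an array, grouped and numbered by its label, and colour is the log2 signal minus the gene's mean over the 12 arrays. Most rows are red in shcontrol_A and in shMsl1_A 1 and blue in shNsl1_B 2 and 3, with Mrps14, Mrps36, Mrpl27 and Mrps18b among the rows that do not follow.

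The first comparison asks what loss of Nsl1 does to these genes. In shNsl1_B, 60 of the 71 members had a mean below shcontrol_B, where 46.6% of all probe sets did. Of the 22180 named genes, taken by the same choice of probe set, 50.3% did. The median difference was -0.20, with a range from -0.56 (Mrpl55) to 0.12 (Mrps34), beside a median of 0.01 over all probe sets. No member passed an adjusted p of 0.05 in limma, and neither did any probe set on the array (0% called). The smallest adjusted p of a member was 0.563. At an unadjusted p under 0.05, 4 members were lower (Mrps15, Mrpl55, Mrpl35 and Mrps9). That is 5.63% of members, against 3.43% of all probe sets and 4.99% of named genes, so the count was near the share of named genes. The fold change rank statistic (FCROS) that the methods name called 14 members lower and 0 higher, against 3.36% of all probe sets called lower. These 14 were Mrpl2, Mrpl4, Mrpl11, Mrpl20, Mrpl22, Mrpl35, Mrpl36, Mrpl37, Mrpl55, Mrps9, Mrps10, Mrps11, Mrps15 and Mrps22. In 9 members (12.7%) all knockdown arrays lay below all control arrays, a pattern seen in 5.64% of all probe sets and 7.52% of named genes. They were Mrpl1, Mrpl3, Mrpl22, Mrpl35, Mrpl55, Mrps9, Mrps15, Mrps18c and Mrps21, and no member lay above all controls (4.66% of all probe sets).

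Arrays that share a replicate number in experiment B deviated together, and the pairs show the members more clearly than the group means. Within pairs, 44 members were lower in all 3 (17.8% of all probe sets and 22.9% of named genes) and 1 member, Mrps18b, was higher in all 3 (18.6% of all probe sets). The median difference over the members was -0.09 in pair 1, -0.21 in pair 2 and -0.35 in pair 3, and 47, 59 and 69 of the 71 members were lower in the respective pairs, where 50.4%, 47.5% and 48.4% of all probe sets were. With the pair as a block, 27 members were lower at an unadjusted p under 0.05, in place of 4 without the block. In that fit 7.96% of all probe sets and 10.8% of named genes were. None passed the adjusted threshold, the smallest adjusted p being 0.117 (Mrps15).

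**Figure D2:**
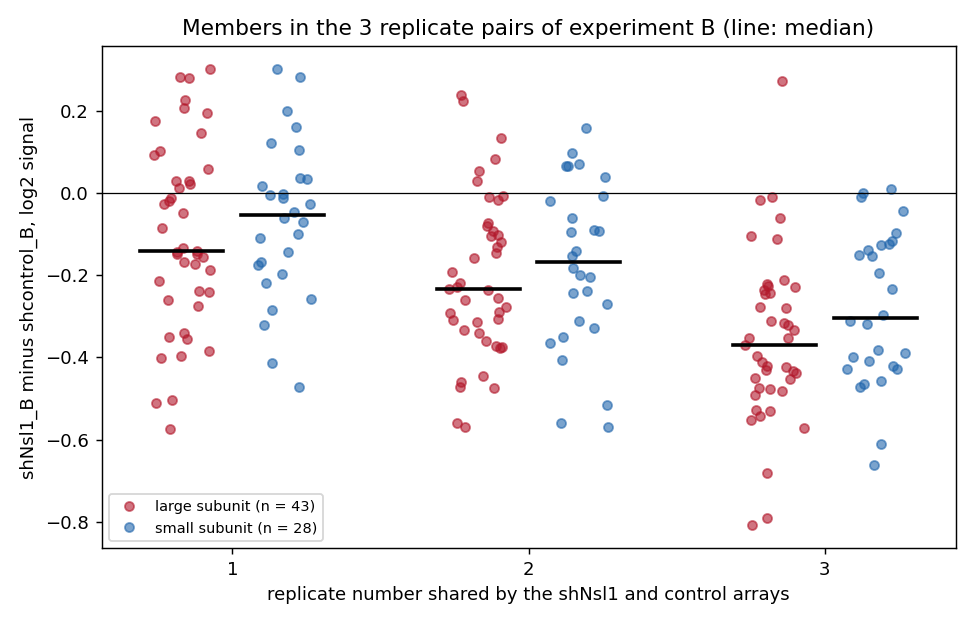
Each point is a member, placed by its shNsl1_B minus shcontrol_B difference in log2 signal within a pair of arrays with the same replicate number, and the horizontal line is the median of the 43 large or 28 small subunit genes. Points spread on both sides of 0 in pair 1, and in pair 3 only Mrpl27 and Mrps18b are above 0.

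Mrps15, the homologue of a bacterial protein that binds the small subunit rRNA early in assembly, had the smallest p of the members with and without the block. Its signals were 9.86, 9.83 and 9.68 in shcontrol_B and 9.39, 9.32 and 9.07 in shNsl1_B. All knockdown arrays were below all controls, and the difference was -0.53 ± 0.12 (SE), which leaves 69.1% of the control signal (limma adjusted p = 0.563, between 0.0357 and 0.9999 under the alternatives tried, with the low value from array weights). Mrpl55, a large subunit protein, had the largest difference of the members. Its signals were 8.65, 8.22 and 8.43 in shcontrol_B and 8.14, 7.75 and 7.75 in shNsl1_B, or 68.1% of the control signal, with the pairs between -0.47 and -0.68. Mrpl35 read 9.77, 9.75 and 9.44 in shcontrol_B and 9.37, 9.18 and 8.86 in shNsl1_B, again without overlap, a difference of -0.51 ± 0.17 (SE). The promoter of each of these 3 genes is shown above, and no motif of the 4 was found in all of them.

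Of the other large subunit members with small p in the paired fit, Mrpl4 lines the exit tunnel for the nascent chain and read 9.56, 9.32 and 9.10 in shcontrol_B and 9.20, 8.76 and 8.65 in shNsl1_B. Mrpl2, whose bacterial homologue lies near the peptidyl transferase centre, read 8.70, 8.44 and 8.21 against 8.35, 7.97 and 7.72. Mrpl37, a protein without a bacterial counterpart, read 10.13, 9.72 and 9.64 against 9.75, 9.36 and 9.09. In all 3 genes the group ranges overlapped, while each of the 9 pair differences was between -0.34 and -0.56. Their differences were -0.45, -0.43 and -0.43, with block standard errors of 0.08 or 0.09 and block adjusted p of 0.138, 0.14 and 0.144 in limma.

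In the small subunit, Mrps9, a homologue of bacterial S9, read 8.64, 8.44 and 8.37 in shcontrol_B and 8.32, 8.07 and 7.99 in shNsl1_B, with no overlap and pairs of -0.32, -0.36 and -0.38. Mrps11, a homologue of bacterial S11, read 9.53, 9.27 and 9.07 against 9.11, 8.92 and 8.68, and its pairs were between -0.35 and -0.41. The ranges of Mrps11 overlapped. Mrps22, a protein found only in mitochondrial ribosomes and mutated in human mitochondrial disease, read 8.87, 8.83 and 8.57 against 8.67, 8.26 and 7.91, so that its pair 1 (-0.20) was smaller than pairs 2 and 3 (-0.57 and -0.66). Mrps23, also without a bacterial counterpart, differed by -0.32 (block SE 0.08), with pairs from -0.22 to -0.40.

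Some members did not have lower means. Mrps34, a small subunit protein, read 8.41, 7.66 and 7.31 in shcontrol_B and 8.72, 7.72 and 7.31 in shNsl1_B. Its spread within each group was wider than the difference of 0.12. Mrpl17, a homologue of bacterial L17, differed by 0.10 ± 0.14 (SE), and Mrps18b by 0.04 ± 0.11, with pairs of 0.03, 0.07 and 0.01. The 11 members with a mean above the controls were Mrpl17, Mrpl27, Mrpl49, Mrpl54, Mrpl57, Mrps7, Mrps12, Mrps16, Mrps18b, Mrps28 and Mrps34. For Mrps16, the kept probe set gave 0.01 and a dimmer one -0.30. For Mrps18b a second probe set gave -0.02.

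**Figure D3:**
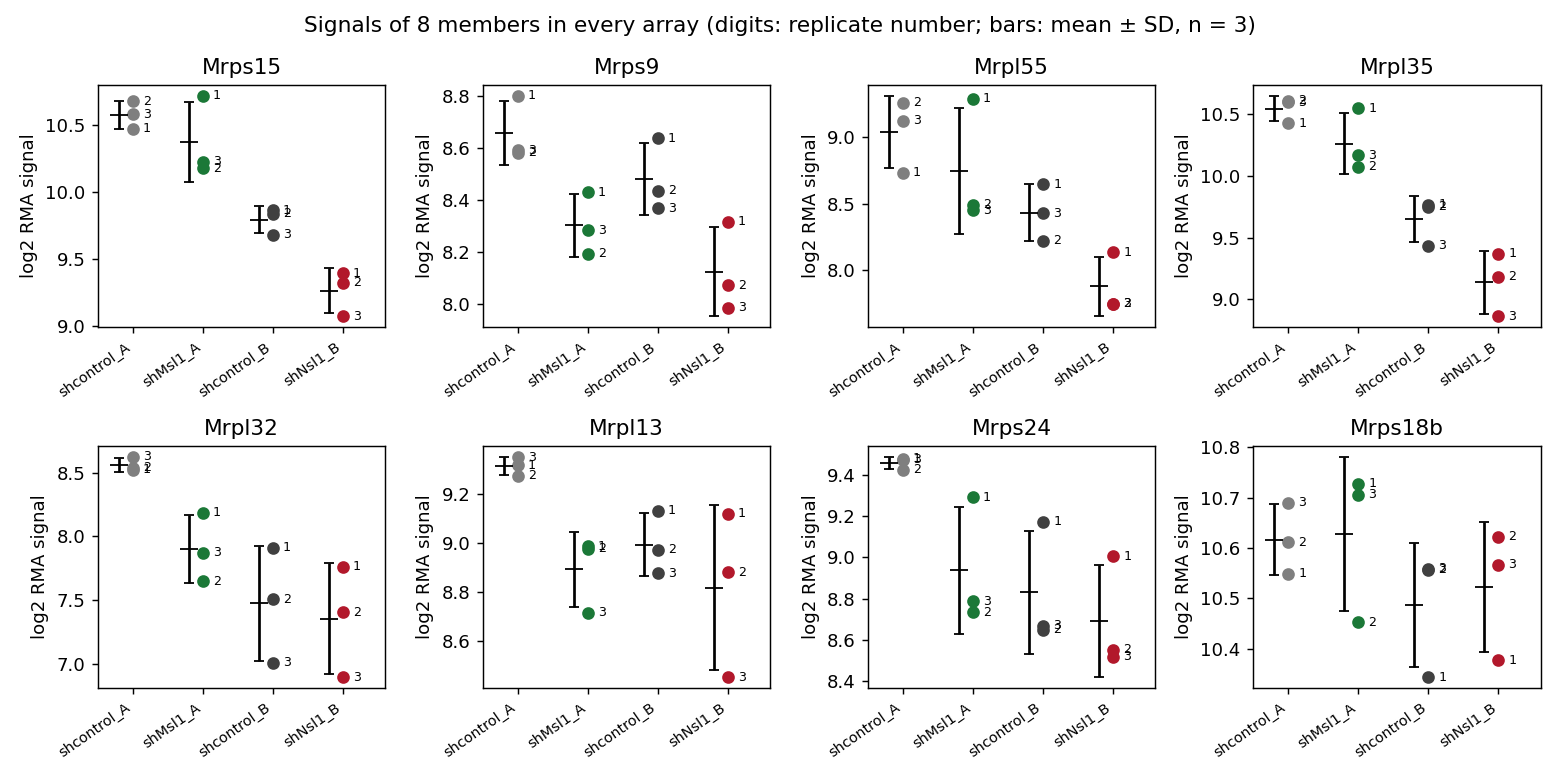
Log2 RMA signals of 8 members, one panel each with its own vertical scale, with a point per array numbered by replicate and, to the left of the points, the mean and SD of the 3 arrays of a group. Mrps15, Mrps9, Mrpl55 and Mrpl35 have shNsl1_B arrays wholly below shcontrol_B, Mrpl32, Mrpl13, Mrps9 and Mrps24 have the arrays labelled shMsl1_A wholly below shcontrol_A, and Mrps18b overlaps in both.

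After Nsl1 knockdown, genes of both subunits were below the controls. In the large subunit 38 of 43 genes were below the controls with a median of -0.22, and in the small subunit 22 of 28 with a median of -0.16. The difference between the medians was -0.06, and it was 0.0035 without the array shNsl1_B 3. Lower in all 3 pairs were 27 large and 17 small subunit genes. The 44 members assigned a bacterial counterpart had a median of -0.22, and the 25 assigned as found only in mitochondrial ribosomes -0.15. In pair 1 alone these medians were -0.14 and -0.01. Mrpl55 (-0.56, the largest difference of the members) and Mrps36 (-0.23) were assigned to neither class, so these medians leave them out.

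Genes that work with the mitochondrial ribosome were read from lists that do not overlap the members. Of 21 measured genes that assemble it or modify its rRNA, 20 were below the controls in shNsl1_B (median -0.14), and of 14 measured factors of mitochondrial translation 13 were (median -0.25). No gene of either list passed the adjusted threshold. Eral1, a GTPase that binds the small subunit rRNA, read 9.24, 9.12 and 8.93 in shcontrol_B and 8.66, 8.53 and 8.32 in shNsl1_B (-0.59 ± 0.13, SE). Mtrf1, a mitochondrial release factor, read 6.86, 6.69 and 6.55 against 6.24, 6.20 and 5.92. Both were without overlap between groups. Next in the paired fit came Tfb1m (-0.37), an rRNA methyltransferase, and Fastkd2 (-0.35), an RNA-binding protein, in the first list, and Mtfmt (-0.47), which formylates the initiator tRNA, and Mtif3 (-0.45), an initiation factor, in the second. Of the mitochondrial ribosomal proteins that carry other symbols, Dap3 differed by 0.08 ± 0.23 (SE), Ptcd3 by 0.08 ± 0.11 and Gadd45gip1 by 0.08 ± 0.42, while Chchd1 and Aurkaip1 were not analysed here. Of these 3 genes, 0, 1 and 2 were lower in pairs 1, 2 and 3.

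The same arrays also differed in genes listed as feeder fibroblast markers. Of 34 feeder fibroblast markers, 32 were measured, and their median relative to the 12-array mean was -0.20, 0.34 and 0.24 in shcontrol_B 1 to 3 and -0.28, 0.48 and 0.46 in shNsl1_B 1 to 3. The arrays with the higher fibroblast medians, numbers 2 and 3 of both groups, were those with the lower member medians. Within pairs, the fibroblast median differed by -0.09, 0.18 and 0.17, and 19 of the 32 markers had a higher mean in shNsl1_B (median 0.06). Pair 1, with the fibroblast difference below 0, was also the pair with the smallest member median, -0.09. Of 16 mESC markers, 10 were below the controls (median -0.05), and the pluripotency factors Pou5f1 and Nanog differed by -0.09 and -0.10. None of the markers of either list passed the adjusted threshold in this comparison. Which cells gave the fibroblast marker signals was not tested, nor was the part of feeder RNA in the members' differences. In bulk RNA fewer cells of a type and less RNA per cell cannot be told apart.

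**Figure D4:**
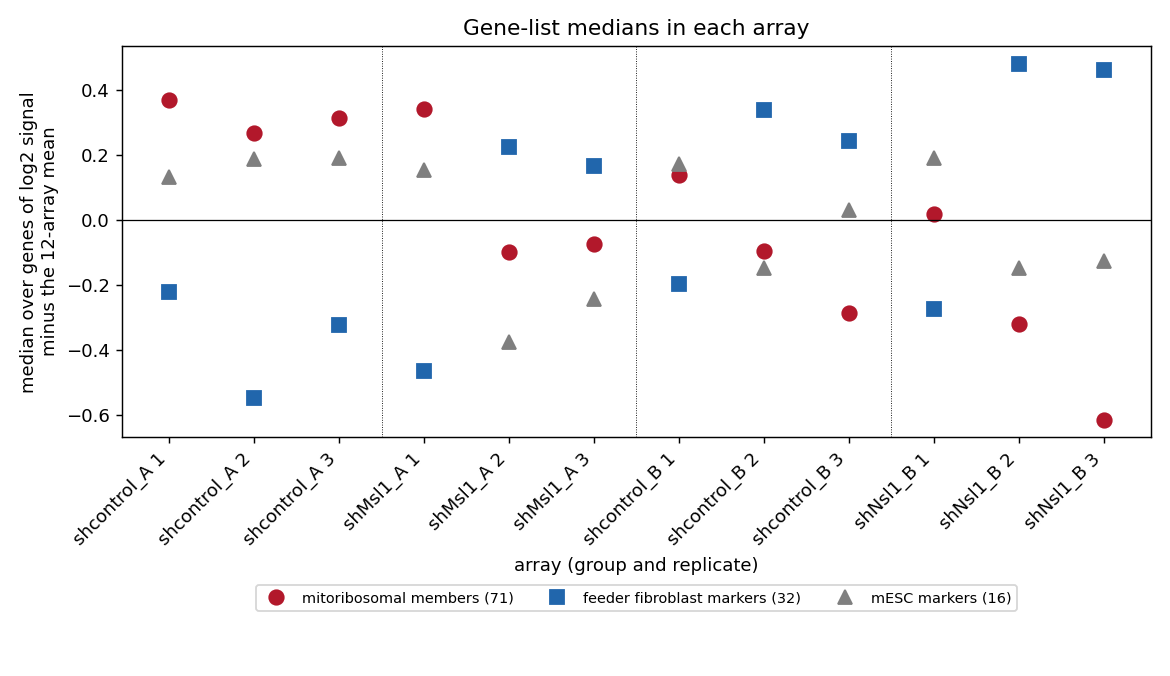
For each array, the points give the median over the genes of a list of the log2 signal minus the gene's 12-array mean, for the 71 members, 32 feeder fibroblast markers and 16 mESC markers. Fibroblast medians are above 0 in arrays 2 and 3 of shMsl1_A, shcontrol_B and shNsl1_B, and the member medians of these 6 arrays are all below 0.

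The second comparison sets the arrays labelled shMsl1_A against those labelled shcontrol_A, and it rests on the labels of experiment A described above. By these labels Msl1 itself differed by -0.16 ± 0.74 (SE), so a loss of Msl1 was not seen between the labelled groups. With the groups of the headings it differed by -1.69, and the paper lists Msl1 among the genes lower after its own knockdown. As labelled, 65 of 71 members had a mean below shcontrol_A, where 51% of all probe sets and 55.1% of named genes did, and the median difference was -0.25. No member and no probe set passed in limma (0% called, smallest adjusted p 0.622). At an unadjusted p under 0.05, 5 members were lower (Mrpl13, Mrpl32, Mrpl51, Mrps9 and Mrps24), against 2.92% of all probe sets and 3.29% of named genes. FCROS called 2 members lower, Mrpl32 and Mrps24, against 1.35% of all probe sets. In 7 members (Mrpl13, Mrpl32, Mrpl51, Mrps9, Mrps22, Mrps24 and Mrps28) all arrays labelled shMsl1_A lay below all labelled shcontrol_A, against 5.78% of all probe sets and 6.14% of named genes. The medians were -0.26 for 43 large and -0.20 for 28 small subunit genes. Array shMsl1_A 1 resembled the controls, with a member median 0.03 above the control mean, and arrays 2 and 3 were at -0.41 and -0.37. The headings list arrays shMsl1_A 2 and 3 as the control and the knockdown of replicate 3. Without shMsl1_A 1, 28 members passed, all lower, against 6.02% of all probe sets called lower in that fit.

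Mrpl32, a large subunit protein whose maturation by a mitochondrial protease precedes ribosome assembly in yeast and mouse, had the largest difference as labelled. Its signals were 8.52, 8.54 and 8.62 in shcontrol_A and 8.18, 7.65 and 7.87 in shMsl1_A, a difference of -0.66 ± 0.15 (SE), or 63.3% of the control signal. Mrpl13, a homologue of bacterial L13, read 9.32, 9.28 and 9.35 against 8.99, 8.98 and 8.72, a difference of -0.42 ± 0.10. Both genes were lower in all arrays labelled knockdown, that labelled shMsl1_A 1 included. Mrps24, the homologue of bacterial S3, read 9.48, 9.43 and 9.47 against 9.29, 8.73 and 8.79. Mrps9 read 8.80, 8.58 and 8.59 against 8.43, 8.19 and 8.28. Of the other members with small p, Mrpl51 differed by -0.31, Mrpl16 by -0.37, Mrpl24 by -0.43, Mrps16 by -0.31, Mrps22 by -0.20 and Mrps28 by -0.30. Above the controls were 6 members, with Mrps14, a homologue of bacterial S14, at 0.22 ± 0.12 (SE), Mrpl49 at 0.14, Mrps36 at 0.08, Mrpl3 at 0.03, Mrps18b at 0.01 and Mrpl27 at 0.01. For Mrpl10 a second, dimmer probe set gave 0.03 where the kept one gave -0.20, and Mrps18b disagreed likewise (-0.04 against 0.01).

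The shift of the members in experiment A depended on the placing of the 2 arrays. Without them, 66 of 71 members were below the controls, beside 49.0% of all probe sets and 51.9% of named genes, and the median was -0.18. With the groups of the headings, 41 of 71 members were below the controls, beside 49.6% of all probe sets, and the median was -0.02. Then 2 members were without overlap and lower, against 3.14% of all probe sets, Mrpl32 differed by -0.07 and Mrpl13 by -0.22, and Msl1 itself by -1.69. Mrps15, at -0.20 as labelled, was at 0.13 with the headings, and Mrpl55 went from -0.29 to 0.22. The members furthest below the controls with the headings were Mrpl3 (-0.51), Mrpl12 and Mrpl54, and the first of them was above the controls as labelled. Fibroblast markers changed sides too, as 27 of 32 were above the controls as labelled (median 0.32) and 8 of 32 with the headings (-0.20). The mESC markers had a median of -0.33 as labelled, with 15 of 16 below the controls, and -0.02 with the headings. The part of these cell markers in the members' differences was not tested.

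As labelled, the mitochondrial ribosome assembly list had a median of -0.13 (16 of 21 below the controls) and the translation factors -0.13 (12 of 14). None of their genes passed. Rpusd4, an rRNA pseudouridine synthase, differed by -0.39, Gtpbp10, a GTPase of large subunit assembly, by -0.44 and Tfb1m by -0.43. Among the translation factors Mtrf1 differed by -0.35, the recycling factor Mrrf by -0.48 and Guf1, an elongation factor GTPase, by -0.16. Dap3, Ptcd3 and Gadd45gip1 differed by -0.33, -0.23 and -0.63.

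Set side by side, 57 of 71 members were lower in both comparisons as labelled. Singly, 60 were lower after Nsl1 knockdown and 65 in experiment A as labelled, where 46.6% and 51% of all probe sets were. The share of all probe sets lower in both was not computed, as labelled or with the headings. The sizes of the differences showed little relation from gene to gene. Across the 71 members, which are not independent replicates, Pearson's r between the 2 differences was 0.09 (Spearman's rho -0.0073), and with the headings -0.28 with 34 members lower in both. Mrpl55, lowest after Nsl1 knockdown, was at -0.29 in experiment A as labelled. Conversely, Mrpl32, lowest in experiment A as labelled, was at -0.12 after Nsl1 knockdown. In the limma test of the difference between the 2 knockdown effects no member passed, at the adjusted or at an unadjusted p under 0.05. Of all 41345 probe sets, 0.00967% passed the adjusted threshold. At an unadjusted p under 0.05, 1616 of them were lower and 1052 higher, as were 1180 and 630 of the 22180 named genes. The members with the smallest p of that difference were Mrps14 (-0.30 ± 0.18, SE), Mrps15 (-0.33 ± 0.21) and Mrps36 (-0.31 ± 0.20), with a smallest adjusted p of 0.845. With the headings the median of the difference was -0.17, beside 0.003 over all probe sets. Below 0 were 52 of 71 members, 49.4% of all probe sets and 51.8% of named genes. There 4 members (Mrps15, Mrps21, Mrpl35 and Mrpl55) were lower at an unadjusted p under 0.05, against 2.75% of all probe sets and 3.78% of named genes. None passed the adjusted threshold (smallest adjusted p 0.906 in limma). With the groups as labelled and a replicate block by the labelled numbers, 2 members (Mrpl32 and Mrps34) were higher at an unadjusted p under 0.05. This compares with 3.82% of all probe sets, and again none passed (smallest adjusted p 0.387 in limma). The headings number the arrays of experiment A differently, and a block by those numbers was not tested.

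**Figure D5:**
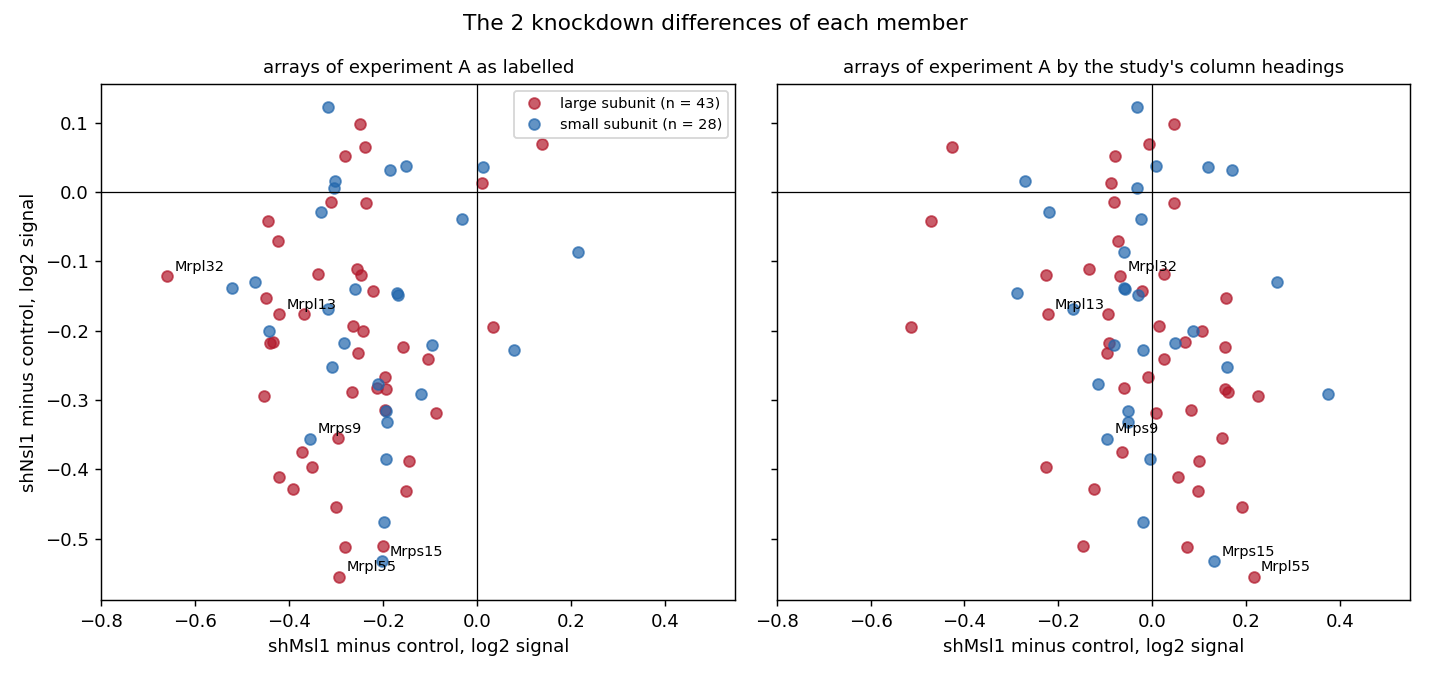
Each point is a member, with its shNsl1 minus control difference in log2 signal on the vertical axis and its shMsl1 minus control difference on the horizontal axis, on the left with the arrays of experiment A as labelled and on the right with the groups of the study's column headings. Left of 0 lie 65 members in the first panel and 41 in the second.

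The controls of the 2 experiments were also compared, with the same control arrays that enter the knockdown comparisons. As labelled, both groups carried the same non-target shRNA, but the headings place the array labelled shcontrol_A 2 with the knockdowns. Experiment and group cannot be told apart here. The median over the members was -0.41 in shcontrol_B minus shcontrol_A, beside -0.03 over all probe sets. Lower in B were 65 of 71 members, where 54.7% of all probe sets and 60.1% of named genes were. The knockdown medians given above, -0.20 and -0.25, were smaller in size. In limma 13 members passed, all lower in B, against 3.38% of all probe sets, and 35 were without overlap and lower (22% of all probe sets and 25.8% of named genes). Of the 13, 11 were large subunit genes (Mrpl1, Mrpl4, Mrpl19, Mrpl23, Mrpl24, Mrpl32, Mrpl35, Mrpl36, Mrpl39, Mrpl50 and Mrpl52, of which those outside the naming rule were named after their values were seen) and 2 small subunit genes (Mrps15 and Mrps17). Mrps15 fell from 10.47, 10.68 and 10.58 in shcontrol_A to 9.86, 9.83 and 9.68 in shcontrol_B, a difference of -0.78 ± 0.10 (SE, limma adjusted p = 0.0288). Mrpl35 fell by 0.89 and Mrpl32 by 1.09, the largest difference of the 71. The medians were -0.51 for the large and -0.29 for the small subunit.

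This count changed when any 1 array was left out, which also leaves fewer arrays for the test. It was 0 without any one of the 3 shcontrol_A arrays or without shcontrol_B 2 or 3, and 38 without shcontrol_B 1, where 10.7% of all probe sets were called lower, while the median over the members stayed between -0.51 and -0.28. With experiment A grouped by the headings no member and no other probe set passed in limma. The smallest adjusted p was 0.0937 among members and 0.0634 among all probe sets. The median over the members was then -0.27, beside -0.04 over all probe sets. Fibroblast markers were higher in shcontrol_B than in shcontrol_A for 27 of 32 genes (median 0.56), where 18717 of 41345 probe sets were. Of these markers 2 passed the adjusted threshold, beside 839 of the 41345 probe sets passing as higher. Of the 16 mESC markers, 13 were lower in shcontrol_B (median -0.22), beside 54.7% of all probe sets. Of the 13, 1 passed, where 3.38% of all probe sets passed as lower. The part of these markers in the difference was not tested.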

How the data were processed

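Total RNA from 12 cultures was hybridised to Affymetrix Mouse Gene 2.0 ST arrays, and the authors deposited log2 signals after RMA normalization in Expression Console 1.1, per the labels, with no counts, so that the number of arrays (3 per group) limits the precision. Gene symbols came from the platform's annotation, and no source used here names a genome build for the array. Members and lists were chosen with earlier results of these data known. Differences were fitted per comparison with limma 3.58.1 in R 4.3.3 over all 41345 probe sets without covariates (Benjamini-Hochberg, threshold 0.05), and the code was tested on simulated data. The methods name 3 independent replicates, and in experiment B deviations of same-numbered arrays correlated at 0.77, 0.33 and 0.70, so the number was treated as a pair. In A, with the labelled groups and numbers, they correlated at 0.05, -0.23 and 0.21, and A was not paired in the main fits. The headings number the arrays of A differently, and pairing by those numbers was not tested. Replicate blocks that include A used the labelled numbers. Named were the targeted genes, Mrps15, Mrpl55, Mrpl32 and Mrpl13, the 5 members per subunit with the smallest p (paired fit in B), those with the extreme differences, the 3 with the smallest p of the difference between effects and the 3 with the largest spread, members with discordant probe sets, and 3 genes from each further list. FCROS used all 9 array pairs with a trimmed mean (0.25). Alternatives were array centring, a filter on dim probe sets, averaged probe sets, array weights, a variance trend, the fit of all 12 arrays, the replicate block, FCROS and leaving out arrays.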

Additional observations from a re-analysis of the deposited data

How the results depend on the processing

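In the Nsl1 knockdown the count of members passing, 0, was also 0 with the replicate block and under every alternative except array weights (1, Mrps15, adjusted p = 0.0357 in limma, with 1.30% of all probe sets lower) and FCROS (14, with 3.36%). Leaving out 1 array, the median over members stayed below 0 (-0.35 to -0.06), those without overlap numbered 9 to 39 (39 without shNsl1_B 1, 22 without shcontrol_B 3, where 12.4% and 9.91% of all probe sets were without overlap and lower), and the large minus small subunit difference was -0.079 to 0.0035. The smallest median, -0.06, was that without shNsl1_B 3. In the Msl1 knockdown as labelled, members passing numbered 0 with the replicate block, 37 with array weights (36 lower, with 9.32% of all probe sets lower), 2 by FCROS (1.35%) and 0 to 28 leaving out 1 array (6.02% at 28). Members without overlap numbered 11 with centred arrays (6.68% of all probe sets), 21 without the arrays labelled shcontrol_A 2 and shMsl1_A 2 (14.5%), 2 with the headings (3.14%), and 7 to 59 leaving out 1 array (59 without shMsl1_A 1, 21 without shcontrol_A 2 and 15 without shcontrol_A 1, with 24.3%, 11.3% and 10.7% of all probe sets). With the headings the median was -0.023 and the large minus small subunit difference 0.023, where leaving out 1 array gave -0.12 to -0.028. For the difference of the knockdown effects the count was 0 except with array weights (2 higher, with 3.16% of all probe sets higher). For the controls it was 0 with the filter on dim probe sets (70 members kept). It was also 0 with the headings, where no probe set passed. It was 45 with array weights (18.1% of all probe sets lower), 6 in the fit of all 12 arrays (5.17%), 0 by FCROS (0.227%) and 0 to 38 leaving out 1 array (10.7% at 38). In 2 fits the array weights stopped before full convergence. In the other cases the causes were not tested.

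Named members near 0 changed sign. In the Nsl1 knockdown these were Mrpl51 with centred arrays (0.016) and array weights (0.069), and Mrps16 as the mean of its probe sets (-0.15). Leaving out 1 array gave ranges of -0.33 to 0.0055 for Mrpl13, -0.36 to 0.044 for Mrpl16, -0.030 to 0.20 for Mrpl17, -0.35 to 0.11 for Mrpl32, -0.076 to 0.23 for Mrpl49, -0.29 to 0.25 for Mrpl51, -0.28 to 0.28 for Mrps16, -0.035 to 0.11 for Mrps18b, -0.30 to 0.033 for Mrps24, -0.14 to 0.17 for Mrps28 and -0.28 to 0.43 for Mrps34. In the Msl1 knockdown they were Mrps18b as the mean of its probe sets (-0.016) and Mrps36 with array weights (-0.020), with ranges leaving out 1 array of -0.038 to 0.10 for Mrps18b and -0.039 to 0.16 for Mrps36. With the headings the changed signs were Mrpl10 (0.082), Mrpl17 (0.047), Mrpl2 (0.098), Mrpl24 (0.069), Mrpl35 (0.075), Mrpl4 (0.19), Mrpl49 (-0.0077), Mrpl55 (0.22), Mrps14 (-0.060), Mrps15 (0.13) and Mrps36 (-0.021).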
